A study of Mus musculus with 12 samples.

Results

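The genes described here control sterol-regulatory element binding protein 2 (SREBP-2) or are its targets outside the enzymes of cholesterol synthesis. Of 8 genes chosen by name, 7 had at least 1 probe that the platform annotation gives to that gene alone: Srebf2, Scap, Insig1, Insig2, Tmem97, Rdh11 and Mylip. The eighth, Stard4, was not analysed here. These 7 genes had 10 probes among the 36227 on the array, and 9 of the 10 were among the 31359 tested, which cover 16323 named genes. The tenth, the third probe of Srebf2, lay between 0.0389 and 0.176 units on the 12 arrays, under the 0.2 units that the study took as the limit of sensitivity, and was left out. Srebf2 and Insig2 had 2 tested probes each, called here the brighter and the dimmer probe, and the other 5 genes had 1 each.

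Whole ovaries came from lethal yellow (LY) mice, C57BL/6J Ay/a, and from black a/a mice, littermates by the series' description, at 180 and 90 days of age. The Ay allele drives agouti in nearly every tissue, and LY mice become obese as adults. There were 4 groups of 3 mice, 180-day LY, 180-day black, 90-day LY and 90-day black, with 1 mouse on each of 12 one-colour CodeLink arrays. Mice of every group were given the GnRH antagonist Antide (10 µg/g on days 1 and 4) and equine chorionic gonadotropin (eCG, 1 IU per 5 g body weight by the sample labels), and ovaries were taken 36 h after eCG, so that the black controls were hormone-treated animals too. Values are intensities relative to the array's median, in units where the median probe is 1. They compare arrays for the same probe but not one probe with another. The 90-day arrays were run after the 180-day arrays, so differences between ages and between array sets cannot be told apart, and tests were made within an age or as the difference between the genotype effects of both ages.

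Cholesterol synthesis is controlled by where SREBP-2 sits in the cell. The precursor, encoded by Srebf2, spans the endoplasmic reticulum membrane bound to its escort SCAP. When sterols are plentiful, the INSIG proteins hold this complex in place. When they are scarce, SCAP carries SREBP-2 to the Golgi, where the proteases encoded by Mbtps1 and Mbtps2 release the part that enters the nucleus and binds sterol regulatory elements. Its targets include Srebf2 itself, Insig1 and genes that move or handle lipid, such as Tmem97. The oxysterol receptors (LXR) act in the other direction and induce Mylip, whose product marks the LDL receptor for degradation. In the ovary, cholesterol is the starting point of every steroid hormone.

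The upstream sequences of 4 of these genes are shown because they belong to the 3 genes with the smallest p for the interaction of genotype with age (Tmem97, Srebf2 by its brighter probe, and Rdh11) and to 1 feedback target (Insig1), which had the largest log2 difference at 180 days. Each is the 250 bases before the start site in RefSeq's annotation of GRCm38.p6, read 5′ to 3′ on the gene's strand, with motif letters in capitals. Srebf2 is on the plus strand at chr15:82147019-82147268, Insig1 on the plus strand at chr5:28071162-28071411, Tmem97 on the minus strand at chr11:78550736-78550985, and the second of the 2 Rdh11 windows on the minus strand at chr12:79190962-79191211.
Srebf2: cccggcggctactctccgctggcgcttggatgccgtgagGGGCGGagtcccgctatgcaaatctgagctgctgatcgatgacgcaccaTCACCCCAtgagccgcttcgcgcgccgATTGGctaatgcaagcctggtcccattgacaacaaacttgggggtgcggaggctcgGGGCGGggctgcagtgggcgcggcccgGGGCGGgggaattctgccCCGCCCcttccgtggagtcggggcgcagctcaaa
Insig1: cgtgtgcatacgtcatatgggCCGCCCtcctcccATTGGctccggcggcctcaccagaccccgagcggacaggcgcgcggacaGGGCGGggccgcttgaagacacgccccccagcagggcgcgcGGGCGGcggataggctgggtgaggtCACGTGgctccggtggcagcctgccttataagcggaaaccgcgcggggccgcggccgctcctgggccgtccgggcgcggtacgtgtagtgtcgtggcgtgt
Tmem97: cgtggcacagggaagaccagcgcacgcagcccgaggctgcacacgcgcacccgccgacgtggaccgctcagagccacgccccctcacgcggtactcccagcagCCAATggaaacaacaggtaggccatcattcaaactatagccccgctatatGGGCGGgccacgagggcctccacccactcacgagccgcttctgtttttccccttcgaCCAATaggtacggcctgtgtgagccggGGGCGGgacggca
Rdh11: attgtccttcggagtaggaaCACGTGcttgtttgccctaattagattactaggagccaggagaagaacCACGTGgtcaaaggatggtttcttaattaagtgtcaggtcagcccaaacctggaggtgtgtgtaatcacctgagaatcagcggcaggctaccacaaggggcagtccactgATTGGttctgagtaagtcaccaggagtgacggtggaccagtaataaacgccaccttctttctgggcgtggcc

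Motifs were searched on both strands of 300-base windows, from 250 bases before to 50 after the start site, of which the 7 genes had 11. The NF-Y box CCAAT, a binding site of a factor that works together with SREBPs, was in 6 of the 11 windows and in 6 of the 7 genes, and in 37.4% of all 32851 windows. The Sp1 box GGGCGG was in 8 windows of 6 genes (35.7% of all windows), and the E-box CACGTG in 4 windows of 3 genes (7.15%). The sterol regulatory element core TCACNCCAC was in 0 of the 11 windows (1.24% of all windows), as was its looser form TCACNCNAC, which overlaps it (2.70%). The LXR element, a direct repeat named DR4, was also in 0 of the 11 (0.0152%). The shorter run TCACNCCA, which the core contains and which was chosen after the windows were read, was in 1 window, that of Srebf2 (4.36% of all windows).

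At 180 days, 1 of the 9 probes, that of Tmem97, passed the threshold and was higher in LY ovaries (limma on all probes, Benjamini-Hochberg adjusted p under 0.05). Over all 31359 probes 0.0415% passed as higher and 0.00319% as lower. LY exceeded black without overlap between the groups for 4 of 9 probes, both of Srebf2, Tmem97 and Rdh11, against 14.2% of all probes measured on every array. LY lay below black without overlap for 0 of 9 (8.34%). The difference was positive for 7 of 9 probes, with a median log2 difference of 0.29, against 0.03 over all probes. At 90 days 0 of 9 passed in either direction, against 0.00638% higher and 0.0383% lower over all probes, all 9 differences were negative, and the median was -0.25, against -0.0039 over all probes. LY lay below black without overlap for 3 of 9, the brighter Srebf2 probe, Scap and Rdh11 (9.57% of all probes), and above for 0 of 9 (6.91%). At an unadjusted p under 0.05, 4 probes were higher and 1 lower at 180 days (7.05% and 4.91% of all probes), and 0 were higher and 4 lower at 90 days (5.21% and 8.06%).

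**Figure D1:**
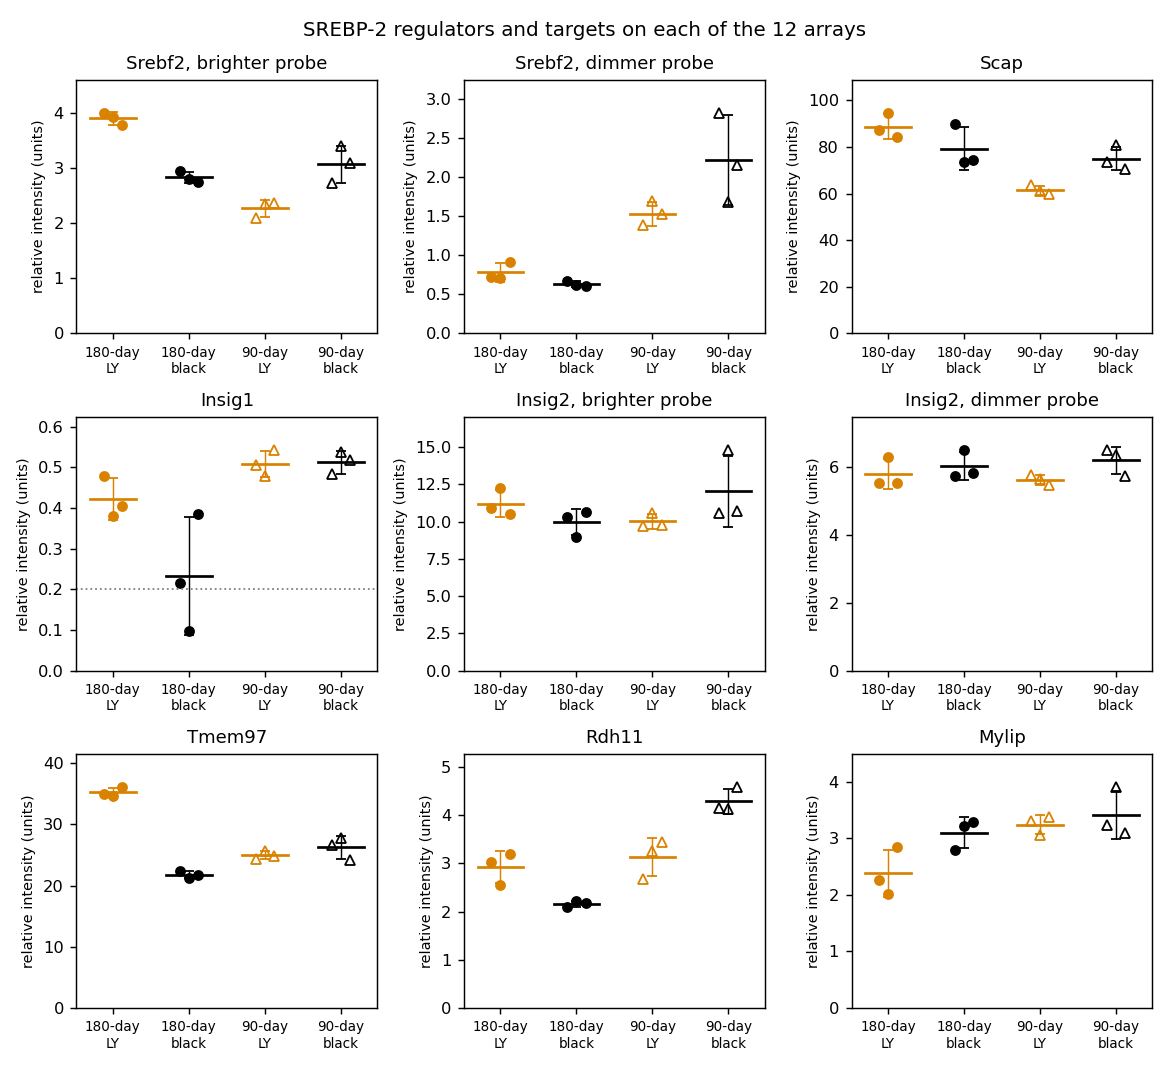
Relative intensity (units, array median 1) of the 9 tested probes on each of the 12 arrays, LY in orange to the left of black in black at each age, circles for 180 days and triangles for 90 days, with bars at the mean and whiskers of 1 SD (n = 3). Tmem97 lay between 34.7 and 36.1 units in 180-day LY ovaries, above all other arrays, and 1 black array of the Insig1 panel lies under the dotted line at 0.2 units.

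Tmem97 encodes a sterol-responsive membrane protein, the sigma-2 receptor, which binds the lysosomal cholesterol transporter NPC1. Its probe gave 35.0, 34.7 and 36.1 units in 180-day LY ovaries and 22.4, 21.2 and 21.7 units in 180-day black ovaries. The LY arrays lay close together and far above the black ones. The means were 35.3 ± 0.745 and 21.8 ± 0.598 units (SD, n = 3 each), 1.62-fold higher in LY, a log2 difference of 0.69 (SE 0.0773, limma adjusted p = 0.0289, rank 3 of 31359 by p). At 90 days the values were 24.4, 25.7 and 24.9 units in LY and 26.6, 27.8 and 24.2 units in black. These groups overlapped, with a log2 difference of -0.07 (limma adjusted p = 0.758). By level, 180-day LY ovaries stood above the other 3 groups without overlap, the 90-day groups overlapped each other, and 180-day black ovaries were lowest, without overlap. The 180-day call was lost without a filter (adjusted p 0.0543), with quantile normalization (0.0514, log2 difference 0.53), with the 180-day arrays fitted alone (0.153) and with the methods' t-test after Benjamini-Hochberg (0.0693). It was also lost on leaving out LY replicate 3 of the 180-day set (0.0626) or any of its black arrays (replicate 1, 0.0742, replicate 2, 0.125, replicate 3, 0.135), and on leaving out LY replicate 2 (0.0643) or black replicate 1 (0.0549) of the 90-day set, while the log2 difference without any 1 array stayed between 0.68 and 0.72.

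Srebf2, the gene of SREBP-2 and a target of its own product, did not pass at either age. Its brighter probe gave 4.00, 3.92 and 3.78 units in 180-day LY ovaries and 2.94, 2.81 and 2.75 units in 180-day black ovaries. Every LY array was above every black array, with means of 3.90 ± 0.112 and 2.83 ± 0.10 units (SD, n = 3 each) and a log2 difference of 0.46 (SE 0.0963, limma adjusted p = 0.133). At 90 days it gave 2.09, 2.35 and 2.38 units in LY and 2.72, 3.40 and 3.10 units in black. Here every LY array was below every black array, with a log2 difference of -0.43 (limma adjusted p = 0.114). The dimmer probe gave 0.717, 0.710 and 0.919 units in 180-day LY and 0.676, 0.622 and 0.609 units in 180-day black ovaries, also without overlap (log2 difference 0.29, limma adjusted p = 0.552). At 90 days it gave 1.38, 1.69 and 1.53 units in LY and 2.82, 1.68 and 2.15 units in black, where 1 black array fell among the LY arrays (log2 difference -0.51, limma adjusted p = 0.261). Both probes thus had differences of the same sign within an age. Between ages they disagreed: the 180-day mean over the 90-day mean was 1.72 in LY and 0.922 in black for the brighter probe, and 0.510 in LY and 0.287 in black for the dimmer one.

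Scap encodes the escort of SREBP-2 and its sterol sensor. Its probe gave 87.2, 94.6 and 84.3 units in 180-day LY ovaries and 89.9, 73.4 and 74.3 units in 180-day black ovaries, which overlapped (log2 difference 0.17, limma adjusted p = 0.544). At 90 days it gave 63.7, 60.9 and 59.9 units in LY and 73.7, 80.6 and 70.7 units in black. Every 90-day LY array was below every 90-day black array, with means of 61.5 ± 1.96 and 75.0 ± 5.10 units (SD, n = 3 each) and a log2 difference of -0.29 (limma adjusted p = 0.263). With quantile normalization the 90-day log2 difference was smaller, -0.12 (limma adjusted p = 0.655).

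Insig1 and Insig2 encode the proteins that retain SCAP, and Insig1 is itself induced by SREBP-2. Insig1 had the largest log2 difference of the 9 probes at 180 days, 1.06 (SE 0.367), but did not pass (limma adjusted p = 0.305). It gave 0.480, 0.381 and 0.405 units in 180-day LY and 0.216, 0.0981 and 0.386 units in 180-day black ovaries. Of the black arrays, 1 was under 0.2 units and 1 was inside the LY range, and the group means were 0.422 ± 0.0513 and 0.233 ± 0.145 units (SD, n = 3 each). The log2 difference was 0.54 without the black array under 0.2 units (replicate 2), 1.53 without black replicate 3, and 0.72 with a floor of 0.2 units. At 90 days Insig1 gave 0.506, 0.479 and 0.543 units in LY and 0.483, 0.537 and 0.517 units in black, which overlapped, with a log2 difference of -0.01 (limma adjusted p = 0.997).

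Insig2 did not pass at either age with either probe. The brighter probe gave 10.9, 12.2 and 10.5 units in 180-day LY and 10.3, 8.95 and 10.6 units in 180-day black ovaries, and 9.68, 10.6 and 9.80 units in 90-day LY and 10.6, 14.8 and 10.7 units in 90-day black ovaries. The groups overlapped at both ages, with log2 differences of 0.17 (limma adjusted p = 0.658) and -0.25 (limma adjusted p = 0.472). The dimmer probe stayed between 5.48 and 6.51 units on all 12 arrays, with log2 differences of -0.06 at 180 days and -0.14 at 90 days (limma adjusted p = 0.850 and 0.551). The 180-day sign thus differed between the probes.

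Rdh11 encodes a retinol dehydrogenase of the endoplasmic reticulum that SREBPs induce in other tissues. It gave 3.03, 2.56 and 3.19 units in 180-day LY ovaries and 2.08, 2.21 and 2.17 units in 180-day black ovaries. Every LY array was above every black array, with means of 2.93 ± 0.326 and 2.16 ± 0.0662 units (SD, n = 3 each) and a log2 difference of 0.44 (limma adjusted p = 0.204). At 90 days the order was turned round without overlap, 2.68, 3.26 and 3.44 units in LY and 4.15, 4.14 and 4.59 units in black, a log2 difference of -0.46 (limma adjusted p = 0.146).

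Mylip, the LXR-induced ubiquitin ligase of the LDL receptor, was the gene with the most negative difference at 180 days. It gave 2.26, 2.02 and 2.84 units in 180-day LY ovaries and 2.78, 3.22 and 3.29 units in 180-day black ovaries. LY replicate 3 lay above 1 black array, and the log2 difference of -0.40 (SE 0.138) did not pass (limma adjusted p = 0.307). At 90 days it gave 3.30, 3.05 and 3.37 units in LY and 3.23, 3.90 and 3.10 units in black, with a log2 difference of -0.07 (limma adjusted p = 0.877).

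**Figure D2:**
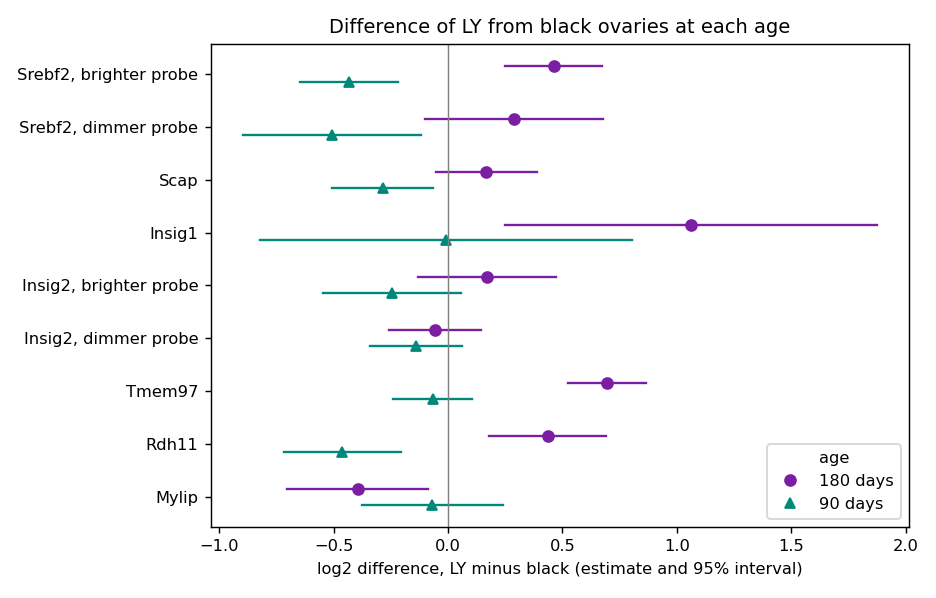
Log2 difference between LY and black ovaries at 180 days and at 90 days for each of the 9 tested probes, with 95% intervals from limma. At 180 days 7 of 9 lie above 0, and at 90 days all 9 lie below 0, with Insig1 at -0.01.

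Whether the genotype difference itself differed between ages was tested as an interaction, the 180-day difference minus the 90-day one. It passed for 0 of the 9 probes and for 0 of all 31359 (0% in each direction), while 2513 probes were higher and 1286 lower at an unadjusted p under 0.05. The interaction was positive for 8 of 9 probes, with a median of 0.76 on the log2 scale against 0.03 over all probes, and at an unadjusted p under 0.05 it was higher for 5 of 9 and lower for 0 (8.01% and 4.1% of all probes). Of these 5, Scap had 0.45 (limma unadjusted p = 0.0088), but 0.24 (limma unadjusted p = 0.0979) with quantile normalization. The 3 members with the smallest p were Tmem97 (0.76, SE 0.109, limma adjusted p = 0.0704), the brighter probe of Srebf2 (0.90, SE 0.136, limma adjusted p = 0.0787) and Rdh11 (0.90, SE 0.164, limma adjusted p = 0.0921). With quantile normalization Tmem97 had 0.56 (limma adjusted p = 0.141), the brighter Srebf2 probe 0.86 (0.106) and Rdh11 0.86 (0.131). Those 3 passed with a filter at 1 unit, where 204 probes were higher and 19 lower. They also passed with an intensity trend and robust variance in limma, where 198 were higher and 17 lower. LY above black at 180 days and below black at 90 days, both without overlap, was found for 2 of 9 probes, the brighter Srebf2 probe and Rdh11, and for 1.82% of all probes measured on every array. The reverse was found for 0 of 9 (0.422%). For Tmem97 the interaction lay in the 180-day arrays, with a 90-day difference of -0.07, whereas for Srebf2 and Rdh11 both ages contributed with opposite signs.

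**Figure D3:**
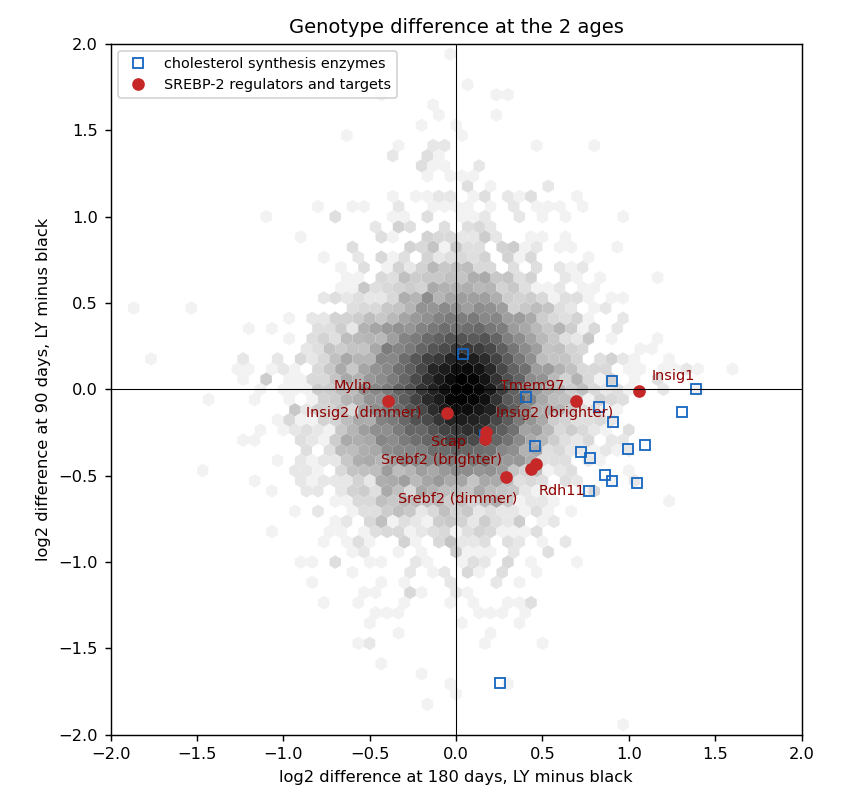
Log2 difference between LY and black at 180 days (horizontal) and at 90 days (vertical), with the 9 tested probes as red circles, the cholesterol synthesis enzymes as open blue squares and all tested probes as grey hexagons, darker for more probes (131 probes with a difference of 2 or more in size at either age are not drawn). The red circles other than Mylip and the dimmer Insig2 probe lie right of 0, and all 9 lie below 0 on the vertical axis.

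The enzymes of cholesterol synthesis, the best known targets of SREBP-2, were described in the same way. Of 21 listed, 18 were tested. At 180 days 6 of 18 passed as higher in LY and 0 as lower (0.0415% and 0.00319% of all probes), and all 18 differences were positive (median log2 difference 0.85). At 90 days 0 passed, 9 were lower and 0 higher at an unadjusted p under 0.05 (8.06% and 5.21% of all probes), and the median was -0.32. Bright probes weigh most in the sums given here and for the marker lists below. The summed level of the 18 lay between 435 and 492 units on the 180-day LY arrays and 263 and 288 on the 180-day black arrays, and between 365 and 395 on the 90-day LY arrays and 455 and 493 on the 90-day black arrays. By unadjusted p at 180 days the first 3 were Cyp51, the lanosterol demethylase, Idi1, the isopentenyl diphosphate isomerase, and Fdps, the farnesyl diphosphate synthase. Cyp51 averaged 34.3 ± 2.27 units in 90-day LY and 37.8 ± 6.15 units in 90-day black ovaries, and Idi1 averaged 12.3 ± 0.848 and 12.3 ± 1.63 units (SD, n = 3 each). Their 180-day black means, 14.2 ± 0.482 and 3.98 ± 0.718 units, lay below the other 3 groups, while the 180-day LY means were 35.7 ± 5.92 and 10.5 ± 2.15 units. Fdps had another order: 146 ± 2.22 units in 180-day LY, 80.6 ± 5.17 in 180-day black, 76.2 ± 7.54 in 90-day LY and 108 ± 13.7 in 90-day black ovaries, with log2 differences of 0.86 (limma adjusted p = 0.0331) and -0.50 (limma adjusted p = 0.113).

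Of the machinery that processes SREBPs no gene passed. All 13 genes listed were tested, 0 passed at either age, 0 were higher and 1 lower at an unadjusted p under 0.05 at 180 days, and the medians were -0.04 at 180 days and -0.03 at 90 days. Mbtps1, which makes the first cut in SREBP-2, averaged 1.28 ± 0.0909 units in 180-day LY and 1.86 ± 0.212 units in 180-day black ovaries (SD, n = 3 each), a log2 difference of -0.54 (limma adjusted p = 0.291). Mbtps2, which makes the next cut, had -0.32 (limma adjusted p = 0.471) and Sec13, of the vesicle coat, 0.16 (limma adjusted p = 0.602). Of the genes of sterol-regulated degradation, through which INSIGs lead HMG-CoA reductase to the proteasome, 13 of 15 were tested and 0 passed (medians 0.04 at 180 days and -0.08 at 90 days). The first 3 were Ubxn4 (-0.44, limma adjusted p = 0.178), Vcp (0.28, limma adjusted p = 0.311) and Ube2g2 (-0.43, limma adjusted p = 0.389).

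Other targets and partners were tested in smaller numbers. Of 6 other genes listed for cholesterol uptake and traffic, 2 were tested and 0 passed. Npc2, the lysosomal cholesterol carrier, had log2 differences of 0.15 at 180 days and -0.43 at 90 days. Stard6, a START domain gene also in the carrier list below, had -0.24 and -0.10. The LDL receptor was among those not analysed here. Of the LXR receptors and targets, 11 of 13 were tested and 0 passed (medians -0.01 and -0.11). Lpcat3, a phospholipid acyltransferase, averaged 34.9 ± 0.532 units in 180-day LY and 25.8 ± 1.89 units in 180-day black ovaries (log2 difference 0.44, limma adjusted p = 0.168), the opposite sign to Mylip, and 20.1 ± 2.62 units in 90-day LY and 26.1 ± 1.58 units in 90-day black ovaries (-0.39, limma adjusted p = 0.178). Apoe had -0.38 and Rxra 0.27 at 180 days. Of the substrates of Mylip and its E2 enzymes, 5 of 7 were tested and 0 passed (medians 0.07 and -0.09), with Ube2d3 at 0.18, Ube2e1 at 0.16 and the lipoprotein receptor gene Vldlr at -0.18 at 180 days.

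Of the carriers with a START domain, the family of Stard4, 10 of 10 were tested and 0 passed (medians 0.03 and -0.24). Star, which delivers cholesterol to the mitochondrion for steroid synthesis, averaged 38.0 ± 8.59 units in 180-day LY and 20.0 ± 3.70 units in 180-day black ovaries (SD, n = 3 each, log2 difference 0.91, limma adjusted p = 0.168), and 23.7 ± 5.96 units in 90-day LY and 33.0 ± 3.37 units in 90-day black ovaries (-0.50, limma adjusted p = 0.360). Stard5 had 0.42 and -0.45, and Acot12, near the limit of sensitivity, 1.43 and -0.48. Of the retinoid dehydrogenases and reductases related to Rdh11, 11 of 12 were tested and 0 passed (medians 0.14 and -0.13), with Rdh16 at 0.46, Rdh14 at 0.19 and Rdh12 at 0.16 at 180 days. Of the binding partners of Tmem97 and the other sigma receptor, 3 of 5 were tested and 0 passed (medians 0.15 and -0.24), with Pgrmc1 at 0.39 and Pgrmc2 at -0.02 at 180 days. Of the lipogenic genes controlled mainly by SREBP-1, 15 of 15 were tested and 1, Me1, the malic enzyme, passed at 180 days, as higher in LY (0.92, limma adjusted p = 0.0348, medians of the list 0.18 and -0.08). Fads1 had 0.70 (limma adjusted p = 0.202), and Acss2, acetyl-CoA synthetase, 0.45 at 180 days and -0.68 at 90 days (limma adjusted p = 0.261 and 0.103).

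**Figure D4:**
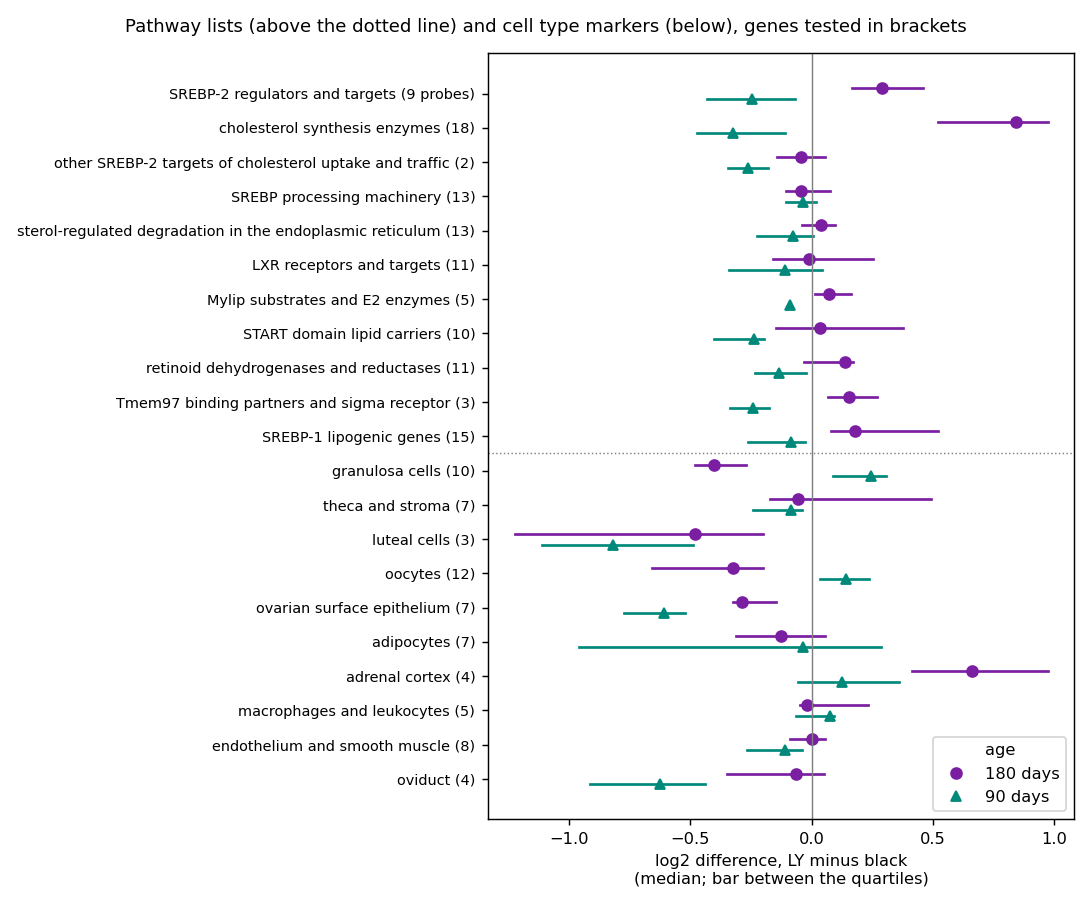
Median log2 difference between LY and black for each gene list at 180 days (circles) and 90 days (triangles), with bars between the quartiles of the list and the number tested in brackets. The row of regulators and targets counts 9 probes, with 2 each for Srebf2 and Insig2. All other rows use the brightest probe of each gene. The regulators and targets (0.29 and -0.25) and the cholesterol enzymes (0.85 and -0.32) lie right of 0 at 180 days and left of it at 90 days, and below the dotted line granulosa and oocyte markers lie the other way round.

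In whole ovaries, fewer cells of a type and less RNA per cell cannot be told apart. At the adjusted threshold 0 markers of any list passed at either age. At a limma unadjusted p under 0.05, 6 of 12 oocyte markers were lower and 0 higher at 180 days (4.91% and 7.05% of all probes). There 2 of 4 adrenal cortex markers were higher and 0 lower. Of 7 surface epithelium markers, 6 were lower and 0 higher at 90 days (8.06% and 5.21%). The interaction was lower for 6 of 12 oocyte and 5 of 10 granulosa cell markers and higher for 0 of either (4.1% and 8.01%). The 10 granulosa cell markers tested of 11 summed to between 216 and 279 units on the 180-day LY arrays and 290 and 371 on the 180-day black arrays (median log2 difference -0.40), and to between 319 and 449 and 321 and 420 units on the 90-day LY and black arrays (0.25). The 12 oocyte markers, all tested, summed to between 46.4 and 64.9 units in 180-day LY and 66.4 and 87.8 units in 180-day black ovaries (-0.33), and to between 69.3 and 72.2 and 59.3 and 78.4 units in 90-day LY and black ovaries (0.14). The theca and stroma list had medians of -0.06 and -0.09. Of the adrenal cortex list 4 of 6 were tested, and they summed to between 59.6 and 70.1 units in 180-day LY and 32.7 and 39.2 in 180-day black ovaries (median 0.66), and to between 30.9 and 41.7 and 42.7 and 50.2 units in 90-day LY and black ovaries (0.12). Most of the 180-day sums came from 1 probe, that of Mrap, the accessory protein of melanocortin receptors. Mrap averaged 64.1 ± 5.19 units in 180-day LY and 35.2 ± 3.27 units in 180-day black ovaries (log2 difference 0.86, limma adjusted p = 0.0512). The means of the adrenal enzyme gene Cyp21a1 there, 0.157 and 0.116 units, were under the limit of sensitivity. Luteal (-0.48 and -0.82), surface epithelium (-0.29 and -0.61) and oviduct (-0.07 and -0.62) lists had lower medians at 90 days than at 180 days. Macrophage (-0.02 and 0.08) and endothelium and smooth muscle lists (0.00 and -0.11) had medians near 0. The adipocyte list had medians of -0.12 and -0.03, but its 7 members tested ran from -1.17 to 3.05 at 180 days and from -1.57 to 0.69 at 90 days. The part of any cell type in the differences of the 9 probes was not tested.

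The genotype labels held on every array: agouti lay between 96.7 and 111 units in 180-day LY and 0.169 and 0.368 in 180-day black ovaries, and between 95.7 and 99.2 in 90-day LY and 0.280 and 0.313 in 90-day black ovaries. Raly, the gene that the Ay deletion removes from 1 chromosome, lay between 8.77 and 10.9 units in 180-day LY and 14.6 and 23.6 in 180-day black ovaries. Arrays of a group correlated at 0.970 to 0.987 over all probes, arrays of both genotypes at an age at 0.962 to 0.984, and arrays of different ages at 0.918 to 0.938.

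Across the 12 arrays, with each age's mean removed, the members followed each other in part. These are Pearson correlations given as a description, since the 12 points share the array medians and both genotype contrasts. The brighter Srebf2 probe had r = 0.89 with Rdh11, 0.79 with Scap, 0.75 with Tmem97, 0.73 with the brighter Insig2 probe, 0.54 with its own dimmer probe, 0.47 with Insig1 and -0.39 with Mylip. Tmem97 had 0.68 with Insig1, 0.66 with Rdh11 and -0.62 with Mylip, and the 2 probes of Insig2 had 0.29 with each other. Over all named genes tested, those most like Tmem97 were Hao2 (r = 0.974), Agpat3 (0.962) and Ttpa (0.961). Those most like Srebf2 were Bud23 (0.984), Shkbp1 (0.968) and Ap1s3 (0.964), and those most like Scap were Eif4g3 (0.965), Nt5dc1 (0.937) and Hsbp1 (0.935). Rdh11 was nearest to Sgsm2 (0.961), Shisa4 (0.950) and Krt31 (0.946), and Insig1 to Spock3 (0.968), Tas2r107 (0.918) and Atrip (0.892). All r values of Insig1 include 1 array, 180-day black replicate 2, on which it was under the limit of sensitivity (0.0981 units). Insig2 was nearest to Adcy9 (0.951), Thap2 (0.943) and Pus10 (0.941), and Mylip to Akap13 (0.939), Dusp7 (0.906) and Il31ra (0.900).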

How the data were processed

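Whole-ovary RNA from 12 mice, 3 in each of 4 groups, was measured on CodeLink one-colour arrays, 1 mouse an array. The intensity values are those deposited by the authors, whose methods describe scanning, background correction by the CodeLink software and division by each slide's 50th percentile. The deposited values were divided by each array's median, raised to a floor of 0.01 units and converted to log2. Probes were tested where the mean of 1 or more groups reached 0.2 units (31359 of 36227) with limma 3.58.1 in R 4.3.3 as 4 group means on all 12 arrays, which share 1 estimate of the spread, with Benjamini-Hochberg adjustment over all of them and a threshold of 0.05. With 3 mice a group, the number of arrays limits the precision. The labels do not say whether same-numbered mice came from 1 litter.

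Genes were named from the platform annotation: 21615 probes had 1 gene, 681 several and 13931 none, and only the first were named. Pathway lists used the brightest probe of each gene. Of each pathway list, the 3 genes with the smallest unadjusted p at 180 days were named, together with every member, its 3 most similar genes, and agouti and Raly. Cyp21a1 and Mrap were named after their values were seen. Members and lists were chosen with earlier results of these data known. Promoter windows came from RefSeq. Alternatives covered the floor, pseudocount, filter, quantile normalization, array weights and an intensity trend with robust variance. They also covered a replicate block, arrays of 1 age, the methods' t-test and leaving out each array. The fit was also run on simulated data with planted changes as a check of the code. Those changes were larger than most differences reported here, so the run does not show how the fit performs for them.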

Additional observations from a re-analysis of the deposited data

Results flagged for a closer look

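For the brighter probe of Srebf2 the difference between LY and black ovaries changed direction with age: all 3 LY arrays were above all 3 black arrays at 180 days and below them at 90 days. The 180-day difference minus the 90-day one was 0.90 on the log2 scale (limma adjusted p = 0.0787, unadjusted p = 5.08e-05). Rdh11 did the same, with 0.90 on the log2 scale (limma adjusted p = 0.0921, unadjusted p = 0.000228). Neither difference passed the threshold, and the 90-day arrays were run after the 180-day arrays.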

How the results depend on the processing

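Of the 9 probes, 1 was called at 180 days. The count was 0 without a filter, with quantile normalization, with the replicate block, with arrays of 1 age only and with the methods' t-test after Benjamini-Hochberg, 2 with array weights, 3 with the methods' t-test unadjusted (2850 higher and 1352 lower of all 31359 probes), and 0 to 1 when each array was left out in turn. At 90 days it was 0, but 3 with the unadjusted t-test (1029 higher and 1770 lower of all probes), and 0 to 0 with each array left out. For the interaction it was 0, but 1 with a pseudocount of 0.1 and 3 with a filter at 1 unit. It was 3 with an intensity trend and robust variance, and 0 to 0 with each array left out. The causes were not tested. With the replicate block, calls over all probes at 180 days were 1 higher and 1 lower, against 13 and 1, and Tmem97 had an adjusted p of 0.289. With each group's mean removed, same-numbered LY and black arrays correlated between -0.0723 and -0.0031 at 180 days and between 0.0513 and 0.148 at 90 days. Arrays with different numbers correlated between -0.0108 and 0.0641 at 180 days and between -0.160 and 0.115 at 90 days. Whether same-numbered mice shared a litter or a batch was not tested. Signs turned for the dimmer Insig2 probe at 180 days without black replicate 2 (0.00017, range with each array left out -0.12 to 0.00017), for Insig1 at 90 days without LY replicate 2 (0.035) or black replicate 2 (0.026, range -0.056 to 0.035), and for Mylip at 90 days without black replicate 2 (0.033, range -0.13 to 0.033). Over all probes at 180 days, 84 were higher and 27 lower with a filter at 1 unit, and 89 and 28 with the trend and robust variance. The counts were 117 and 46 with array weights, 38 and 14 with a floor of 0.2 units, and 1 and 0 without a filter. Insig1 was near the limit of sensitivity.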
